A study of Mus musculus with 18 samples.

Results

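The genes described here make cholesterol and fatty acids. They are 35 named members, of 43346 genes in the tumor table. The members were chosen by name for their known roles in these pathways, with earlier results of these data known. They comprise 19 genes of sterol synthesis (Srebf2, Insig1, Hmgcs1, Mvk, Pmvk, Mvd, Idi1, Fdps, Fdft1, Sqle, Lss, Cyp51, Msmo1, Nsdhl, Hsd17b7, Dhcr7, Sc5d, Ebp and Tm7sf2) and 16 of fatty acid synthesis and its use in triglyceride (Srebf1, Fasn, Acaca, Acacb, Acly, Scd1, Scd2, Elovl5, Elovl6, Fads1, Fads2, Me1, Gpam, Dgat2, Acss2 and Thrsp). All 35 were found, and all 35 were among the 18318 genes that passed the filter on low counts.

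Messenger RNA was sequenced from 12 mouse tumors, in 4 groups of 3. All 12 tumors had been raised with myr-AKT, an activated form of the kinase AKT, together with a mutant of the transcriptional coactivator YAP. In YAP-S tumors the mutant carried S127A, which removes a site of inhibitory phosphorylation, and in YAP-SY tumors it carried both S127A and Y357F, which removes a tyrosine that can be phosphorylated. By its title, the study asked whether that tyrosine phosphorylation is needed for tumors of bile duct cells and of hepatocytes. Positions are those of the YAP protein, and every YAP-SY tumor therefore also has the change of the YAP-S tumors. Within each model, 3 tumors were labelled CCA, the usual abbreviation of cholangiocarcinoma (a tumor of bile duct type), and 3 were labelled mixed. The labels give neither the age nor the strain of the mice, and normal liver was not analysed here. A further 3 samples of SB1, a cell line labelled with the genotype of YAP-S CCA, came from a table of their own. The labels do not say how each tumor number relates to an animal, so p-values measure the spread between these tumors. For each tumor, 30656499 to 130035221 counts were assigned to genes.

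Cholesterol is built from acetyl-CoA through mevalonate, squalene and lanosterol, and fatty acids are built from acetyl-CoA through malonyl-CoA. In liver cells both routes are switched on by the SREBP transcription factors: Srebf2 encodes the form that acts mainly on sterol genes, and Srebf1 the forms that act mainly on fatty acid genes. When sterols are plentiful, the protein of Insig1 holds SREBP in the endoplasmic reticulum, and Insig1 is itself switched on by SREBP. Hepatocytes are the main site of both syntheses in liver.

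SREBP is known to act on promoters beside the factor NF-Y, which binds CCAAT. Promoter windows of 300 bases, from 250 before to 50 after each RefSeq start on GRCm38.p6, were found for 28 of the 35 genes, as 35 promoters. Fads1, Fdft1, Scd2, Sqle, Scd1, Dgat2 and Fdps had no entry. CCAAT, on either strand, occurred in 16 of the 19 sterol promoters (84.2%), in 10 of the 16 fatty acid promoters (62.5%) and in 37.4% of all 32851 promoters of the same length. All 16 sterol genes with an entry had at least 1 such promoter. A sterol element written TCACNCCAC, on either strand, occurred in 1 member promoter, that of Hmgcs1, and in 1.24% of all promoters. The 2 motifs did not overlap in it. These are matches of letters and not measured binding. The promoters of 5 sterol genes whose values are given below are printed 5′ to 3′ on the strand of the gene, with CCAAT or its reverse complement ATTGG, and the sterol element, in capitals.
Hmgcs1, chr13:119690101-119690400, strand plus: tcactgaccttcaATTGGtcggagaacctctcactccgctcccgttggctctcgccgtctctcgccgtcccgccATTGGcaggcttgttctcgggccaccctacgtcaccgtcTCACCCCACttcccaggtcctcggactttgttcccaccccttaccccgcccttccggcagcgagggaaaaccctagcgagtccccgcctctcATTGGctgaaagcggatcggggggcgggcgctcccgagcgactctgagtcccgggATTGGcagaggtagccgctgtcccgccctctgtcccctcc
Insig1, chr5:28071162-28071461, strand plus: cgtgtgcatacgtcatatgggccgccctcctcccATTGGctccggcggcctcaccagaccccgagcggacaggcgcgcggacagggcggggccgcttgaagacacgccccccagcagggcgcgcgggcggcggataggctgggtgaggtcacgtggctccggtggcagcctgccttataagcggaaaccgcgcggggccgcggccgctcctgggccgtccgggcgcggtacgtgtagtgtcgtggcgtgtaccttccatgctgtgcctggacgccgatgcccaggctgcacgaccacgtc
Ebp, chrX:8193463-8193762, strand minus: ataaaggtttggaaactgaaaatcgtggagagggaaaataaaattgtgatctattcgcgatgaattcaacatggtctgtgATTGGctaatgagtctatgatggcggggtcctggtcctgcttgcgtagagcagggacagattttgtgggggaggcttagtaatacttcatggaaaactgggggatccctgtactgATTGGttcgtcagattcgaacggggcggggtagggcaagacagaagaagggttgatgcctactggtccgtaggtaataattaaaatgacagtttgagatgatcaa
Sc5d, chr9:42264251-42264550, strand minus: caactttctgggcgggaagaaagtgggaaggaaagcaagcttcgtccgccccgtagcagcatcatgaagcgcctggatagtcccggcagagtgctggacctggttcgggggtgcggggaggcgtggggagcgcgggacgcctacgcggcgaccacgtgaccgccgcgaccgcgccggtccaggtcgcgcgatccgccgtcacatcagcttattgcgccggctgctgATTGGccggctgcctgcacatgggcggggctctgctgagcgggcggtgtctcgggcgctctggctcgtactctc
Srebf2, chr15:82147019-82147318, strand plus: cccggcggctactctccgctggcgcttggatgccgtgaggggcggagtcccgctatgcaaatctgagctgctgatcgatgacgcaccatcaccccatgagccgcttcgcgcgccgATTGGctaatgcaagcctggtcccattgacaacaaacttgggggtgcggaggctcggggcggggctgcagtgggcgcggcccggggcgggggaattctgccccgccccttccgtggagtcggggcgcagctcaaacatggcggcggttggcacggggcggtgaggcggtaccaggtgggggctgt
Hmgcs1 held 4 copies of ATTGG and Ebp held 2, while Insig1, Sc5d and Srebf2 held 1 each. The windows of Acaca, whose listed start lies inside the gene, and of Elovl6 held neither motif. The listed start of Acacb, and some of those of Dhcr7, Me1 and Srebf1, also lie inside the gene. For Acacb, Dhcr7 and Me1, CCAAT was found only in such a window.

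The tumors were checked against markers of the cell types they could hold. In the YAP-SY tumors labelled CCA, 6 of 8 bile duct markers were lower than in YAP-S CCA tumors (median log2 fold change -1.94), and the summed level of these markers was 2759 to 4172 CPM (the usual scaling of counts to library size) against 7274 to 10745. In the mixed tumors it was 4247 to 16400, so the sum was lower in the YAP-SY tumors labelled CCA than in every mixed tumor. Marker by marker, 5 of 8 lay below the YAP-SY mixed tumors without overlap and 1 passed the test. Of all genes, 12.1% lay below in that way and 2.7% passed as lower. Hepatocyte markers were higher in YAP-SY CCA tumors for 6 of 8 (median 1.01; 4 of 8 with library size alone), with summed levels of 126474 to 143348 CPM against 43465 to 53949 CPM. Fibroblast markers were lower for 5 of 6 (median -2.14) and cycling cell markers for 5 of 5 (median -1.24). Beside these counts, 18.3% of all genes passed the same test as higher and 20.8% as lower. With library size alone 760 of 18318 genes were higher and 8064 lower. Both T cell genes that passed the test, of 3, were lower, as were 2 of 5 macrophage markers, while Clec4f of that list was higher. Of 4 endothelial markers Kdr was higher and Cdh5 lower, and neither Clec4f nor Kdr was called as higher with library size alone. Of 5 adipocyte markers 2 could be tested and neither passed, with summed levels of 15.7 to 40.8 CPM over the CCA tumors. In bulk tissue, fewer cells of a type and less RNA per cell cannot be told apart. The part of these markers in the results below was not tested.

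YAP-SY CCA tumors had more mRNA of 10 of the 19 sterol genes than YAP-S CCA tumors and less of 1, Srebf2. Of the 16 fatty acid genes, 6 were higher and 1, Scd2, was lower. The median log2 fold change, YAP-SY minus YAP-S, was 0.71 over the sterol genes and 0.52 over the fatty acid genes, against -0.00 over all genes tested. The call is an adjusted p under 0.05 in the quasi-likelihood test of edgeR, adjusted by Benjamini and Hochberg's method over all 18318 genes. In this comparison 39.1% of all genes were called, 18.3% as higher and 20.8% as lower, so that many calls in any list are the background. An unadjusted p under 0.05 was reached by 13 sterol and 9 fatty acid genes, and by 48.1% of all genes. Levels are CPM of libraries scaled by TMM, which makes most genes equal between libraries. With library size alone the median of all genes moved to -0.56, the sterol median was 0.14 with 1 gene higher and 3 lower, and the fatty acid median turned to -0.05 with no gene higher and 2 lower. The directions below therefore hold relative to most other genes, as TMM sets them.

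**Figure D1:**
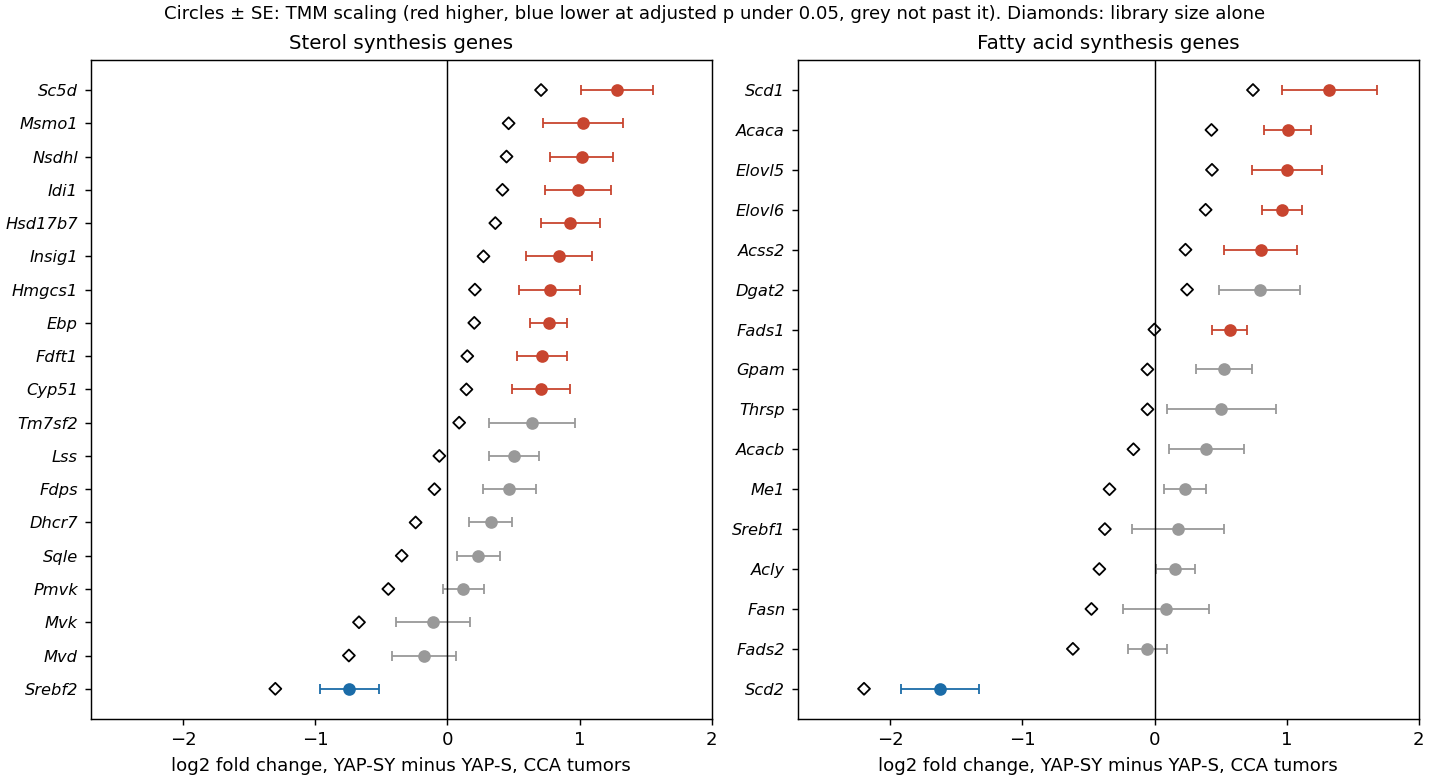
Log2 fold changes (YAP-SY minus YAP-S, x axis) of the 19 sterol genes and 16 fatty acid genes in CCA tumors, 3 tumors a group. Circles with bars are the TMM-scaled values ± SE, red or blue where the adjusted p was under 0.05, and diamonds are the values with library size alone, with which Sc5d stays called as higher and Srebf2 and Scd2 as lower.

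The regulators moved apart from each other in CCA tumors. Values are listed in the order of tumors 3, 4 and 5 (YAP-S CCA), 1, 6 and 8 (YAP-SY CCA), 2, 7 and 9 (YAP-S mixed) and 3, 5 and 9 (YAP-SY mixed). Srebf2 stood at 87.7, 78.1 and 80.8 CPM in YAP-S against 46.9, 39.5 and 61.1 CPM in YAP-SY. All 3 YAP-SY values were below all 3 YAP-S values. The log2 fold change was -0.74 (SE 0.22, adjusted p = 0.0197) and the value was -1.30 with library size alone. Its call was lost when tumor 3 of YAP-S CCA, or tumor 1 or 6 of YAP-SY CCA, was left out. Insig1 stood at 327, 262 and 243 CPM in YAP-S against 308, 642 and 544 CPM in YAP-SY. YAP-SY tumor 1 lay within the YAP-S range and the other two lay well above it. Its log2 fold change was 0.84 (SE 0.25, adjusted p = 0.0190), and 0.27 without a call with library size alone. Leaving out 1 tumor at a time took the call away for 4 of 12 tumors (4 and 5 of YAP-S CCA, 6 and 8 of YAP-SY CCA), with values of 0.62 to 1.10. Srebf1 showed no such shift, at 146, 101 and 107 CPM against 92.7, 91.4 and 216 CPM. Only YAP-SY CCA tumor 8 exceeded the YAP-S tumors, and the log2 fold change, 0.18 with an SE of 0.35, did not pass the test (adjusted p = 0.721).

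Of the genes of the mevalonate and isoprenoid steps, those that rose were Hmgcs1, Idi1 and Fdft1. Hmgcs1, which makes HMG-CoA, rose by 0.78 on the log2 scale (SE 0.23, adjusted p = 0.0180), from 320.1 ± 75.8 to 548 ± 165 CPM (mean ± SD, n = 3), and its groups overlapped. The call was lost without tumor 4 or 5 of YAP-S CCA or tumor 6 of YAP-SY CCA. Idi1, the isomerase of isopentenyl diphosphate, stood at 35.7, 32.3 and 27.2 CPM in YAP-S against 44.6, 91.8 and 53.0 CPM in YAP-SY. The groups did not overlap, and tumor 6 was far above the other two YAP-SY tumors. Its log2 fold change was 0.99 (SE 0.25, adjusted p = 0.00807), and 0.62 without that tumor. Fdft1, squalene synthase, stood at 144, 132 and 103 CPM against 154, 262 and 207 CPM, again without overlap. The log2 fold change was 0.72 (SE 0.19, adjusted p = 0.0109), and the call was lost without YAP-S CCA tumor 5. The kinases Mvk and Pmvk, the decarboxylase Mvd and farnesyl diphosphate synthase (Fdps) did not pass, with log2 fold changes of -0.11, 0.12, -0.18 and 0.47. Pmvk fell by 0.45 and Mvd by 0.75 with library size alone, and both then passed.

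Sqle and Lss, which act between squalene and lanosterol, were not called. Sqle, squalene epoxidase, stood at 95.7, 81.4 and 92.5 CPM in YAP-S against 82.2, 137 and 97.5 CPM in YAP-SY. The groups overlapped, and the log2 fold change was 0.23 (SE 0.16, adjusted p = 0.278). Lss, lanosterol synthase, had a log2 fold change of 0.50 and an adjusted p of 0.0522, just outside the threshold.

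Of the 8 genes whose enzymes turn lanosterol into cholesterol, 6 were called as higher. Sc5d, the sterol desaturase (chromosome 9, 42254177 to 42264300 on GRCm38), stood at 321, 267 and 228 CPM in YAP-S against 405, 941 and 638 CPM in YAP-SY. The groups did not overlap. Its log2 fold change was 1.28 (SE 0.27, adjusted p = 0.00317), and 0.71 with library size alone, the only higher call of the 35 genes that this scaling left. Ebp, the sterol isomerase (chromosome X, 8185329 to 8193512), had the smallest p of the sterol genes. It stood at 147, 147 and 126 CPM against 224, 247 and 243 CPM, and the spread within each group was small beside the gap between them. The log2 fold change was 0.77 (SE 0.14, adjusted p = 0.00126), and 0.20 without a call with library size alone. Nsdhl and Hsd17b7 act with Msmo1 to remove methyl groups from the sterol ring. Nsdhl stood at 91.3, 88.8 and 64.6 CPM against 104, 229 and 162 CPM, and the groups did not overlap (log2 fold change 1.02, SE 0.24, adjusted p = 0.00559). Hsd17b7 stood at 65.1, 44.5 and 45.4 CPM against 63.0, 116 and 117 CPM, with YAP-SY tumor 1 inside the YAP-S range. Its log2 fold change was 0.93 (SE 0.22, adjusted p = 0.00573). Msmo1 (log2 fold change 1.03, adjusted p = 0.0176) and Cyp51, the lanosterol demethylase (0.71, adjusted p = 0.0225), were also called. Both lost the call without tumor 5 of YAP-S CCA or tumor 6 of YAP-SY CCA, and Cyp51 also without tumor 4 of YAP-S CCA. The reductases Tm7sf2 (0.64) and Dhcr7 (0.33), the latter acting last in the route, did not pass.

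In all, 6 sterol genes lay without overlap above YAP-S in YAP-SY CCA tumors and 1 lay below. Over all genes tested, 52.6% did not overlap, 24.3% above and 28.3% below. Of the 11 sterol calls, those of Idi1, Nsdhl, Hsd17b7, Sc5d and Ebp were kept whichever of the 12 tumors was left out. The number of sterol calls was 6 without YAP-S CCA tumor 5 and 6 without YAP-SY CCA tumor 6. Calls over all genes fell as well, from 3358 higher and 3813 lower of 18318. They were 2090 and 3031 of 18719 without YAP-S CCA tumor 5, and 2613 and 3211 of 18951 without YAP-SY CCA tumor 6. Those tumors held the extremes of the list. YAP-SY CCA tumor 6 was the highest of all 12 tumors for 12 sterol genes and YAP-S CCA tumor 5 the lowest for 13. The median level of the sterol genes, in log2 CPM relative to each gene's mean over the 12 tumors, was -0.11, -0.36 and -0.67 in YAP-S CCA tumors 3, 4 and 5. It was -0.20, 0.47 and 0.37 in YAP-SY CCA tumors 1, 6 and 8. YAP-SY CCA tumor 1 thus lay within the YAP-S CCA range. Its hepatocyte marker median, on the same scale, was 0.52, between the 0.41 of tumor 6 and the 0.63 of tumor 8. The hepatocyte medians of YAP-S CCA tumors 3, 4 and 5 were -0.51, -0.32 and -0.89. YAP-S CCA tumor 5 was thus the lowest of all 12 tumors for both medians. The part of these markers in the sterol levels was not tested.

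**Figure D2:**
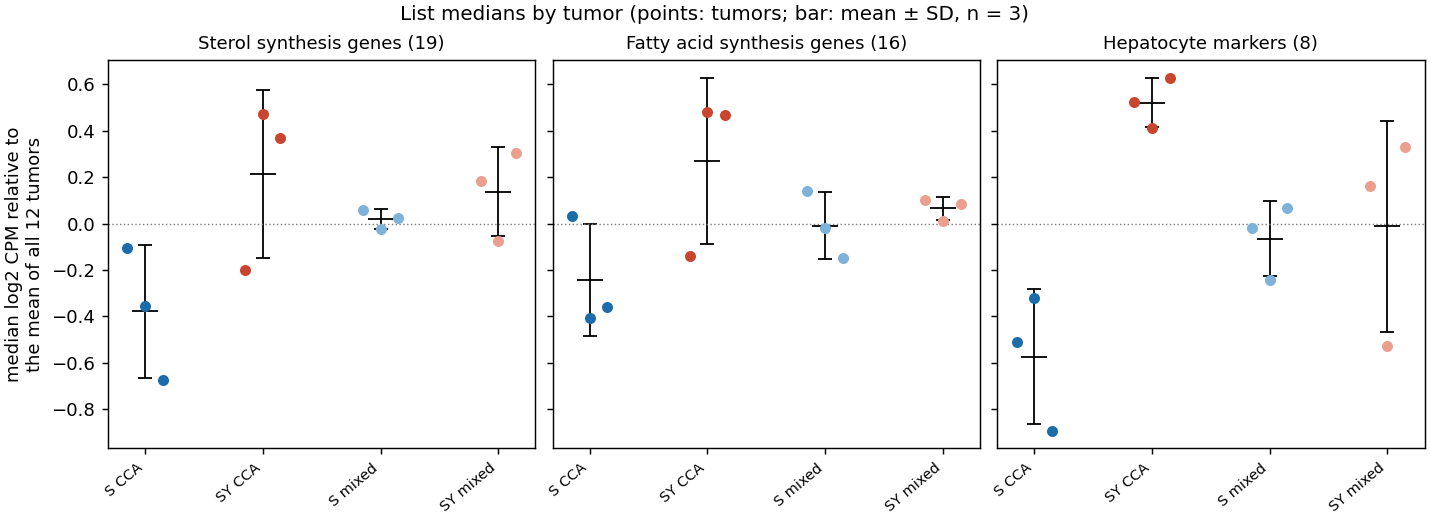
Median log2 CPM relative to each gene's mean of all 12 tumors (y axis) for the 19 sterol genes, the 16 fatty acid genes and 8 hepatocyte markers, by tumor group. Points are tumors and bars are the mean ± SD of 3. YAP-SY CCA tumor 1 lies at -0.20 for the sterol genes, inside the YAP-S CCA range of -0.67 to -0.11, and at 0.52 for the hepatocyte markers. YAP-S CCA tumor 5 is the lowest of all 12 tumors for both, at -0.67 and -0.89.

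Among fatty acid genes, those of the carbon supply and the synthase complex split. Acaca, acetyl-CoA carboxylase of the cytosol (chromosome 11, 84129672 to 84401651), stood at 106, 92.2 and 111 CPM in YAP-S against 174, 229 and 217 CPM in YAP-SY. At this scaling the groups did not overlap, and the log2 fold change was 1.01 (SE 0.18, adjusted p = 0.00110). With library size alone it was 0.43 without a call. Acacb, the carboxylase at mitochondria whose product restrains fatty acid oxidation, stood at 88.3, 57.6 and 45.2 CPM against 53.4, 80.9 and 117 CPM. It overlapped between groups and did not pass (log2 fold change 0.39, SE 0.28, adjusted p = 0.291). Fasn, fatty acid synthase itself, stood at 585, 315 and 488 CPM against 379, 356.8 and 739 CPM. Its groups overlapped almost wholly, and the log2 fold change was 0.09 (SE 0.33, adjusted p = 0.855). Acly, which makes acetyl-CoA from citrate (0.16), and Me1, which supplies NADPH (0.23), did not pass either. Acss2, which makes acetyl-CoA from acetate, was called (log2 fold change 0.80, SE 0.28, adjusted p = 0.0363), and lost the call in 5 of 12 leave-outs (tumors 4 and 5 of YAP-S CCA, 6 and 8 of YAP-SY CCA and 9 of YAP-S mixed) and when the 2 CCA groups were fitted alone.

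Of 6 elongase and desaturase genes, 4 were higher, 1 (Scd2) was lower and 1 (Fads2) was not called. Elovl6, which elongates palmitate (chromosome 3, 129532386 to 129638495), had the smallest p of all 35 genes. It stood at 84.6, 67.1 and 83.2 CPM against 129, 181 and 148 CPM. The groups did not overlap, and the log2 fold change was 0.96 (SE 0.15, adjusted p = 0.000516). With library size alone it was 0.39 without a call. Elovl5, which elongates polyunsaturated fatty acids, stood at 324, 213 and 185 CPM against 331, 663 and 455 CPM. YAP-SY tumor 1 lay only just above YAP-S tumor 3, and the log2 fold change was 1.004 (SE 0.26, adjusted p = 0.01003). Its call was lost without tumor 5 of YAP-S CCA or tumor 6 of YAP-SY CCA. Fads1, a desaturase of polyunsaturated fatty acids, stood at 396, 372 and 361 CPM against 495, 640.3 and 539.7 CPM. Its groups did not overlap and its log2 fold change was 0.57 (SE 0.13, adjusted p = 0.00537), which became -0.00 with library size alone. Its neighbour Fads2, the other such desaturase, did not pass at -0.06, and was called as lower at -0.62 with library size alone.

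The stearoyl-CoA desaturases Scd1 and Scd2, which put the double bond into saturated fatty acids, moved in opposite directions. Both lie on chromosome 19, Scd1 at 44394451 to 44407709 and Scd2 at 44293676 to 44306864. Scd1 stood at 7378, 4062 and 4247 CPM in YAP-S against 7231, 19988 and 12027 CPM in YAP-SY. YAP-SY tumor 1 again lay within the YAP-S range, and tumor 6 was the highest. The log2 fold change was 1.32 (SE 0.36, adjusted p = 0.0115), and the call was lost without tumor 5 of YAP-S CCA or tumor 6 of YAP-SY CCA. Scd2 stood at 396, 348 and 457 CPM against 103, 124 and 163 CPM. Every YAP-SY value was under the lowest YAP-S value, and the log2 fold change was -1.63 (SE 0.29, adjusted p = 0.00127), the largest of the 35 genes in size. The call was kept in all 12 leave-outs, with values of -1.82 to -1.48, and the value was -2.20 with library size alone. The pair are paralogs with Scd3 and Scd4 beside them, and how reads that match several of them were counted is not given in the sources used here. Scd3 and Scd4 held 342 to 2266 and 97 to 663 counts a tumor.

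The genes of triglyceride assembly did not pass. Gpam, which acylates glycerol phosphate, had a log2 fold change of 0.53 (adjusted p = 0.0662), and Dgat2, which adds the last fatty acid, 0.80 (adjusted p = 0.0561). Dgat2 lay without overlap above YAP-S in all 3 YAP-SY tumors. Thrsp, a lipogenic protein of liver and fat, had a log2 fold change of 0.51 (adjusted p = 0.355).

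In sum over the fatty acid list, 5 genes lay above YAP-S without overlap in YAP-SY CCA tumors and 1 below. Of all genes tested, 24.3% lay above and 28.3% below. The calls of Acaca, Scd2, Elovl6 and Fads1 were kept in every leave-out. The number of fatty acid calls was 4 without YAP-S CCA tumor 5 and 4 without YAP-SY CCA tumor 6. Over all genes, 2090 were higher and 3031 lower without YAP-S CCA tumor 5. Without YAP-SY CCA tumor 6 these numbers were 2613 and 3211, against 3358 and 3813 with all tumors. Tumor 6 was the highest of all 12 tumors for 8 of the 16 genes. Srebf1, Fasn, Acacb, Dgat2 and Thrsp were instead highest in YAP-SY CCA tumor 8, as were Pmvk, Lss, Hsd17b7 and Tm7sf2 of the sterol genes.

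**Figure D3:**
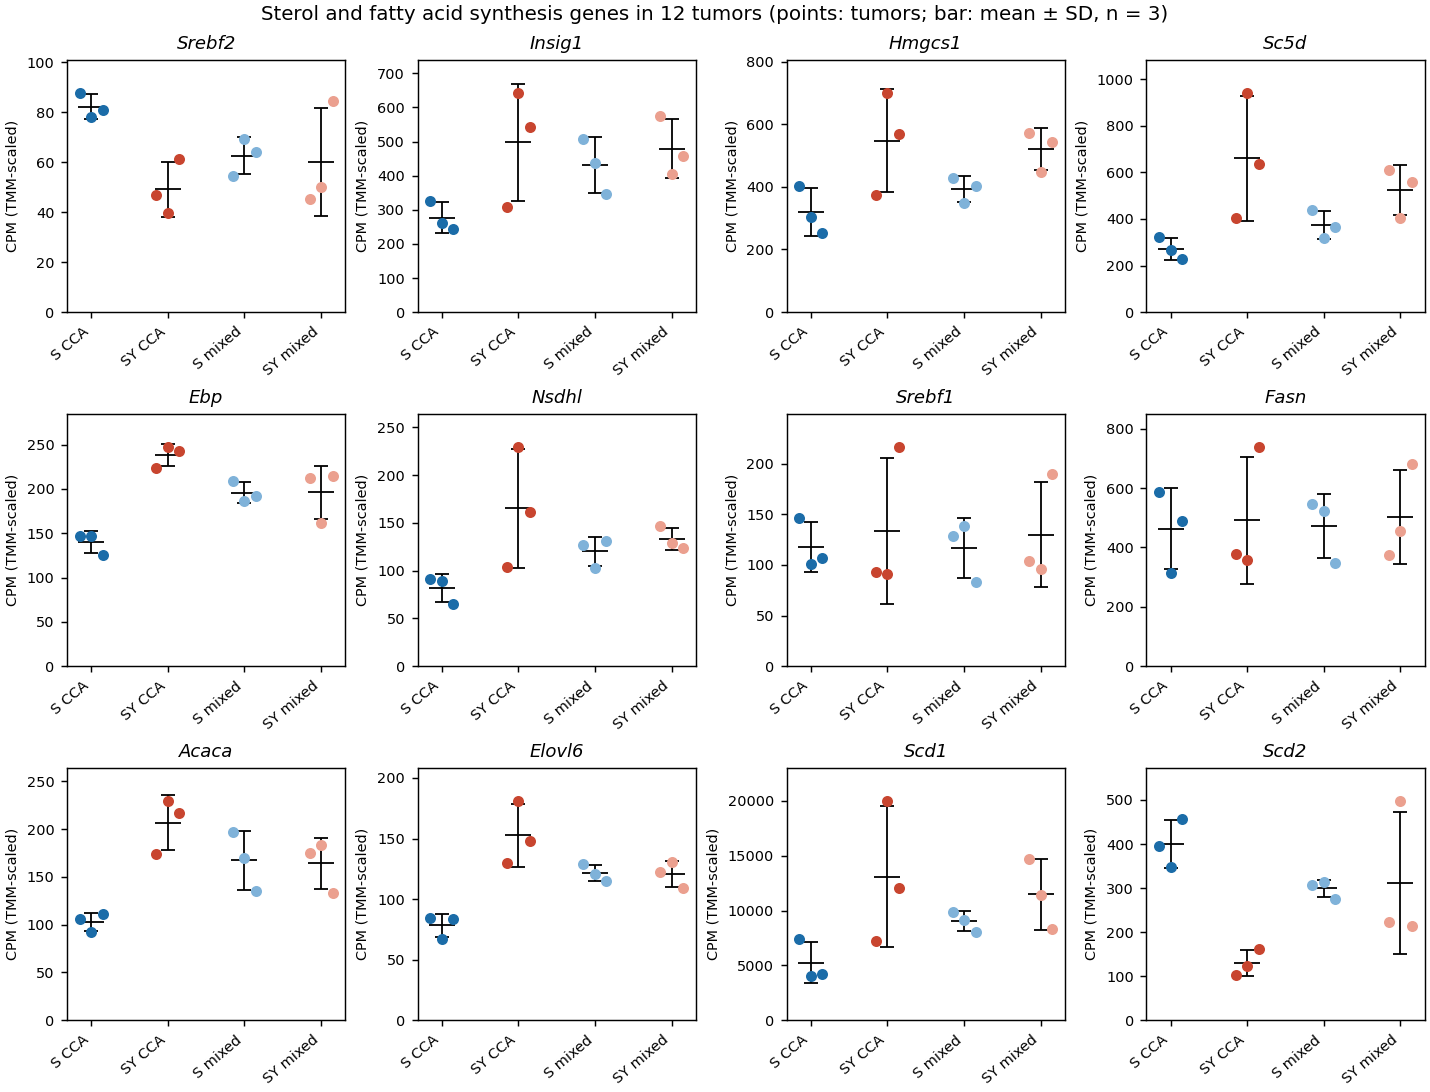
CPM (y axes, TMM-scaled, from 0) of 12 genes in the 4 tumor groups, where points are tumors and bars the mean ± SD of 3. Relative to most other genes, Ebp, Acaca and Elovl6 were higher and Scd2 lower in YAP-SY CCA than in YAP-S CCA without overlap, the mixed groups overlapped for all 4, and with library size alone none of the 3 higher genes was called.

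Ratios of 2 genes within a tumor do not depend on how libraries are scaled. These pairs were chosen after their values were seen, so the ratios are a description with no test. Per base of gene length, Scd1 exceeded Scd2 by 21.0, 13.2 and 10.5 times in YAP-S CCA tumors 3, 4 and 5. In YAP-SY CCA tumors 1, 6 and 8 the ratio was 79.3, 182 and 83.3. The mixed tumors lay between, at 32.8 to 36.3 in YAP-S and 25.8 to 74.7 in YAP-SY. Insig1 per Srebf2 was 5.56 to 6.90 in YAP-S CCA and 12.1 to 30.1 in YAP-SY CCA. Sc5d per Srebf2 was 6.04 to 7.84 and 18.5 to 51.1 in the same groups. For all 3 pairs the CCA groups did not overlap, with tumor 1 included. Acaca per Acacb did overlap, at 0.762 to 1.56 in YAP-S CCA and 1.18 to 2.07 in YAP-SY CCA.

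**Figure D4:**
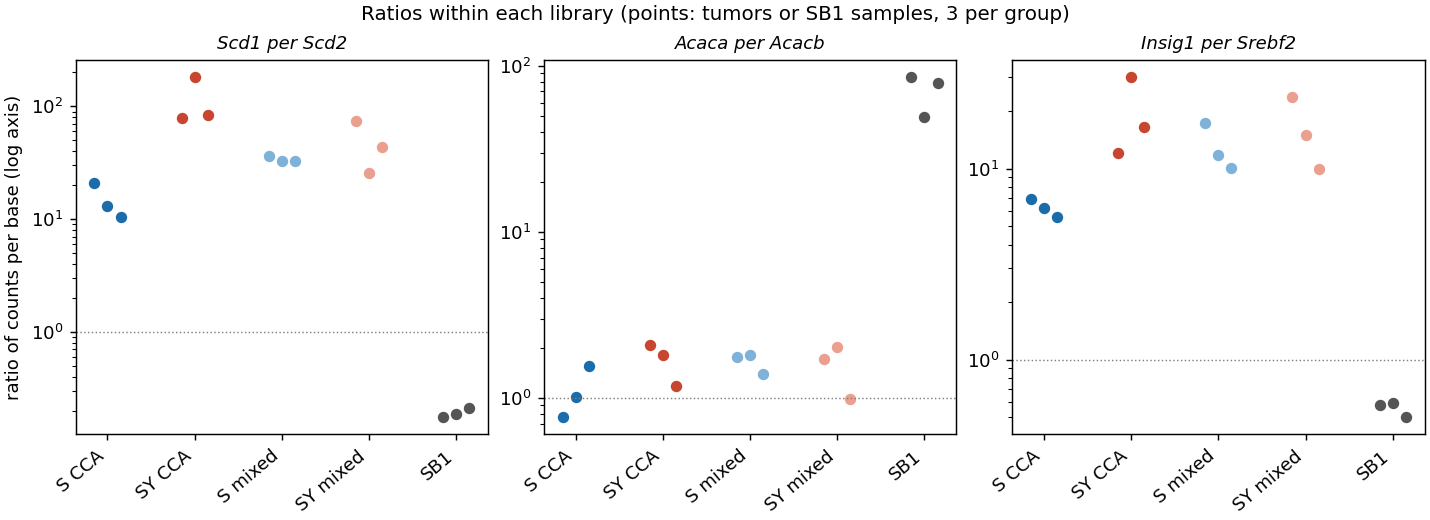
Ratio of counts per base of gene length (log axes) for Scd1 per Scd2, Acaca per Acacb and Insig1 per Srebf2, where points are single tumors or SB1 samples, 3 a group. Scd1 per Scd2 ran from 10.5 to 21.0 in YAP-S CCA and from 79.3 to 182 in YAP-SY CCA, and was 0.175 to 0.213 in SB1.

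In mixed tumors no member was called between the models. Nor was any of the 18318 genes (0%), and the test at this number of tumors gave 551 genes (3.01%) an unadjusted p under 0.05, none of them a member. DESeq2 and limma-voom with sample quality weights called no member either, and DESeq2 called 11 other genes. The median log2 fold change was 0.15 over the sterol genes and 0.13 over the fatty acid genes, against 0.02 over all genes. Single genes ran from -0.12 to 0.49, the highest being Elovl5, whose 281, 227 and 266 CPM in YAP-S mixed tumors lay below the 444, 305 and 339.6 CPM of YAP-SY mixed tumors. Groups did not overlap for Hmgcs1, Hsd17b7, Elovl5, Fads1 and Fads2, all higher in YAP-SY, where 8.35% of all genes did not overlap, 4.3% above and 4.05% below. Acaca, at 197, 169.7 and 135 CPM against 175, 184 and 133 CPM, and Ebp, at 209, 186 and 192 CPM against 213, 161 and 214 CPM, overlapped widely.

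Whether the YAP-SY effect differed between CCA and mixed tumors was tested as an interaction, in which 15.2% of all genes were called, 5.02% as higher and 10.2% as lower. This contrast shares all 12 tumors with the others. It called 1 sterol gene, Ebp, with a difference of 0.76 in log2 fold change (SE 0.19, adjusted p = 0.0233). It called 3 fatty acid genes. Acaca differed by 1.04 (SE 0.25, adjusted p = 0.0184), Elovl6 by 0.98 (SE 0.21, adjusted p = 0.0118) and Scd2 by -1.68 (SE 0.41, adjusted p = 0.0189). For Ebp, Acaca and Elovl6 the YAP-SY effect was thus higher in CCA than in mixed tumors, and for Scd2 it was lower. The call of Elovl6 was kept in all 12 leave-outs, that of Ebp was lost in 3 (tumor 5 of YAP-S CCA and tumors 2 and 9 of YAP-S mixed) and those of Acaca and Scd2 were lost without YAP-S mixed tumor 2. Without that tumor Acaca differed by 0.90. With library size alone the calls were Srebf2 (-1.19), Scd2 (-2.23) and Fads2 (-0.85), all lower, and Ebp, Acaca and Elovl6 were not called. Of all genes, 150 were then higher and 4180 lower. Sc5d, Idi1 and Nsdhl, with differences of 0.80, 0.83 and 0.87, did not pass. In all, 6 members and 32.2% of all genes had an unadjusted p under 0.05.

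CCA and mixed tumors of the same model were also compared. These contrasts use the same tumors as those above. In YAP-S no member and no other gene was called (0%), although 9 members had an unadjusted p under 0.05, 6 of the sterol and 3 of the fatty acid list, where 19.8% of all genes had one. The smallest adjusted p was that of Elovl6, 0.0587, with 78.3 ± 9.70 CPM in CCA against 122 ± 6.82 CPM in mixed tumors (mean ± SD, n = 3) in edgeR's test. Acaca (log2 fold change -0.70, adjusted p = 0.0668) and Ebp (-0.48, adjusted p = 0.0903) came next, both with all 3 CCA tumors below all 3 mixed tumors. The groups did not overlap for 13 members. Insig1, Idi1, Sqle, Nsdhl, Ebp, Acaca, Scd1, Elovl6 and Fads1 lay lower in CCA, and Srebf2, Mvk, Scd2 and Fads2 lay higher. Over all genes 37.8% did not overlap, 20.2% above and 17.6% below. DESeq2 called 1 sterol and 2 fatty acid genes here, where it called 1037 of all genes as higher and 476 as lower. With limma-voom and sample quality weights the calls were 6 and 3, beside 1987 and 1622 of all genes. In YAP-SY the only member called was Scd2, lower in CCA, where 2.9% of all genes were called, 2.7% as lower and 0.207% as higher. Scd2 and Elovl6 (log2 fold change 0.34) had an unadjusted p under 0.05, as did 21.6% of all genes. Ebp lay higher in CCA and Acly and Scd2 lower, without overlap, where 20.1% of all genes did not overlap, 7.99% above and 12.1% below. Scd2 stood at 222, 498 and 213 CPM in the mixed tumors, above the 103, 124 and 163 CPM of the CCA tumors. The log2 fold change was -1.26 (SE 0.29, adjusted p = 0.0411). The call was kept without tumor 8 of YAP-SY CCA or tumor 3 or 9 of YAP-SY mixed and lost in the other 9 leave-outs, and the value was -0.75 without YAP-SY mixed tumor 5.

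Other genes of the same pathways were read from lists made by their known roles, also with earlier results of these data known. Of 18 genes of sterol sensing, efflux and esterification, 8 were higher and 3 lower in YAP-SY than in YAP-S CCA tumors (4 and 6 with library size alone), beside the 18.3% and 20.8% of all genes. Abca1, which exports cholesterol to apolipoprotein A-I, stood at 166, 159.9 and 145 CPM against 312, 402 and 345 CPM (log2 fold change 1.17, adjusted p = 0.000160). Abcg5, a transporter of sterols into bile, stood at 25.7, 20.2 and 16.3 CPM against 50.6, 97.3 and 79.1 CPM (1.86, adjusted p = 0.00151). Neither overlapped between the groups. Stard4, a carrier of sterol (1.05), and Tmem97 (0.85) rose as well. Soat1, which esterifies cholesterol, fell from 16.9, 19.6 and 17.2 CPM to 6.25, 6.35 and 7.71 CPM (-1.41, adjusted p = 0.000202). Lbr (-0.43), which also holds a sterol reductase, and the exporter Abcg1 (-0.94) were the other two that fell. Lbr lost its call without tumor 3 of YAP-S CCA or tumor 1 of YAP-SY CCA, and Abcg1 without tumor 5 of YAP-S CCA or tumor 6 of YAP-SY CCA (-0.66 without the latter). In the interaction, Abca1 (1.10), Tmem97 (0.79) and Soat1 (-1.64) were called, the call of Tmem97 being lost in 10 of 12 leave-outs. Of all genes, 5.02% were called there as higher and 10.2% as lower.

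Of 29 genes of fatty acid supply, elongation and storage, 12 were higher and 3 lower in YAP-SY CCA (2 and 5 with library size alone). Of all genes, 18.3% were higher and 20.8% lower, or 760 and 8064 of 18318 genes with library size alone. The elongases split. Elovl2, which makes very long polyunsaturated fatty acids, stood at 253, 237 and 197 CPM against 643, 874 and 626 CPM (log2 fold change 1.64, adjusted p = 0.000147). Elovl7 stood at 20.4, 24.4 and 23.5 CPM against 6.05, 4.67 and 7.21 CPM (-1.93, adjusted p = 0.000205). Neither overlapped, and both differed between CCA and mixed tumors in the interaction (1.44 and -1.98), as did Acsl1, Mlx and Plin2, whose interaction calls were lost in 2, 9 and 8 of 12 leave-outs. The interaction called 5.02% of all genes as higher and 10.2% as lower. Acsl1, an acyl-CoA synthetase, rose from 553 ± 67.8 to 1506 ± 82.8 CPM (mean ± SD, n = 3). Acsl4 (0.70) and the citrate carrier Slc25a1 (0.76) were also higher. G6pdx, which makes NADPH in the pentose phosphate route, fell by 1.23 on the log2 scale, and Cidea, a lipid droplet protein, had a log2 fold change of -2.24 at low levels that overlapped, 1.25 to 6.87 CPM in YAP-S against 0.473 to 1.29 CPM in YAP-SY. The call of Cidea was lost without tumor 3 of YAP-S CCA (value -1.48) or without tumor 1 or 8 of YAP-SY CCA. Mlxipl, the carbohydrate-responsive factor of lipogenesis, was higher at 0.93 (adjusted p = 0.0150) and is named here after its value was seen; its call was lost without tumor 5 of YAP-S CCA.

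The SB1 cells had another balance of the same genes. The table of SB1 counts is separate from that of the tumors and holds no tumor, so its levels, in CPM of the library total with no TMM factor, are given beside the tumors without a test. Hepatocyte markers summed to 693 to 1204 CPM in SB1 and bile duct markers to 2534 to 2943 CPM. Few genes made up these sums. By mean, Alb stood at 779 CPM and the other hepatocyte markers at 0.237 to 54.8 CPM. Krt19 and Spp1 stood at 1429 and 905 CPM. The other bile duct markers ran from 0.0603 (Cldn4) and 0.235 (Epcam) to 226 CPM (Krt7). Fibroblast markers summed to 456 to 610 CPM and cycling cell markers to 2137 to 2714 CPM. Scd2 stood at 1711, 1674 and 1667 CPM and was the highest of the 35 genes per base of length, while Scd1 stood at 265, 279 and 315 CPM. Per base, Scd1 led in the YAP-S CCA tumors. Of the pair's counts per base, Scd2 made up 82.4% to 85.1% in SB1 and 4.55% to 8.71% in YAP-S CCA tumors.

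Several fatty acid genes were low in SB1. Thrsp had 0, 4 and 1 counts, and Acacb stood at 0.884, 1.42 and 0.913 CPM. Dgat2 ran from 6.61 to 9.59 CPM and Acss2 from 10.7 to 14.8 CPM. In the YAP-S CCA tumors, by library total, Thrsp averaged 96.4, Acacb 76.0, Dgat2 225 and Acss2 218 CPM. Acaca stood at 109.7 to 119 CPM in SB1 beside a mean of 124 CPM in the tumors, and Acaca per Acacb was 49.1 to 85.4 in SB1. The sterol genes were all present, the lowest count being 323, for Idi1. Srebf2, at 192 to 215 CPM, stood above its mean of 98.9 CPM in the YAP-S CCA tumors. Insig1, at 52.9 to 68.9 CPM, and Sc5d, at 46.3 to 46.4 CPM, stood under their tumor means of 333 and 325 CPM. Sqle, at 122 to 149 CPM, and Cyp51, at 132 to 188 CPM, lay near the tumor means of 108 and 185 CPM.

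**Figure D5:**
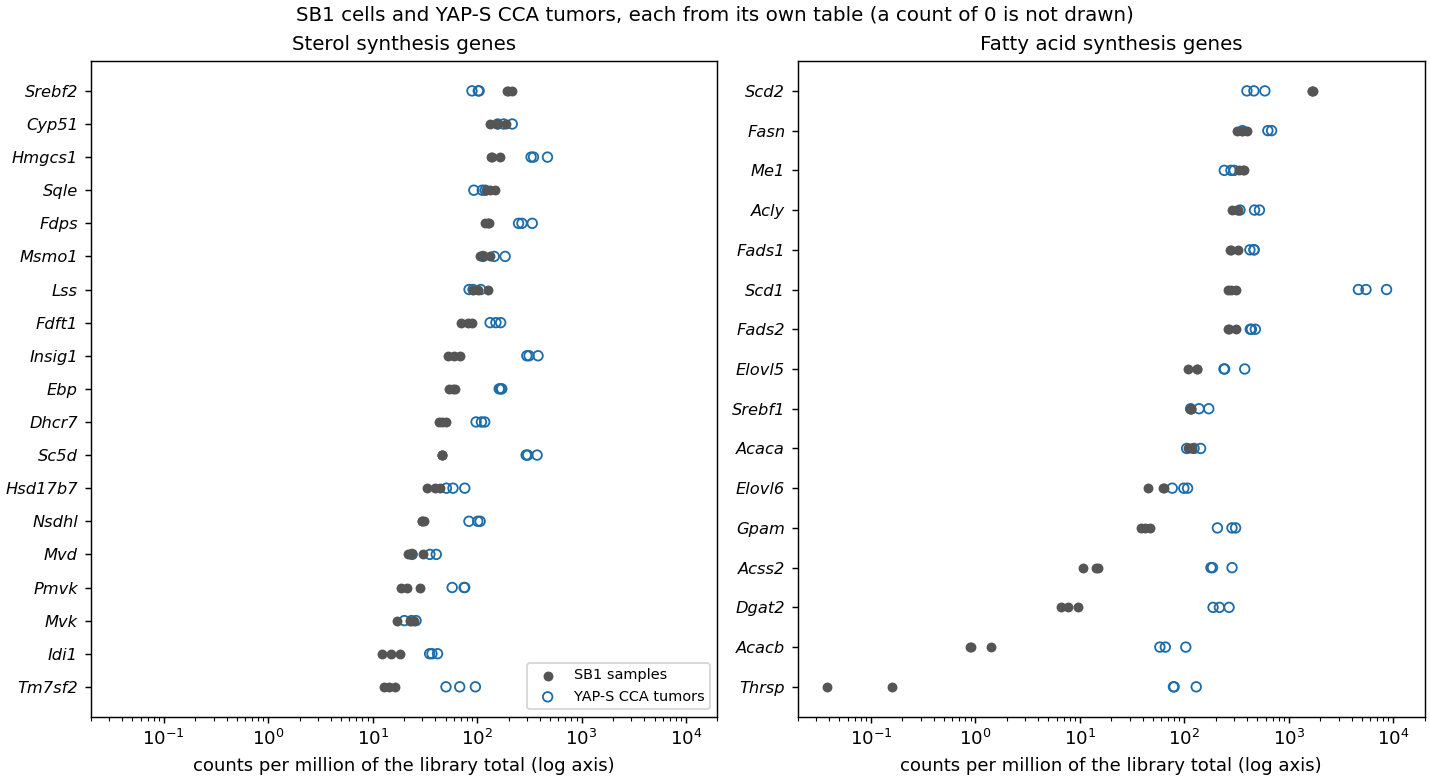
CPM of the library total (log axes) of the 35 genes in 3 SB1 samples (filled) and 3 YAP-S CCA tumors (open), each from its own table. In SB1, Scd2 leads at 1667 to 1711 CPM, and Acacb (0.884 to 1.42 CPM) and Thrsp, undetected in 1 sample, lie lowest, in the same order as per base of length.

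Some members share exons with other genes on GRCm38, and whether counting used strand is not given in the sources used here. On the opposite strand, Acss2 overlaps Ggt7 and Gss, Cyp51 overlaps Akap9, Fdft1 overlaps Ctsb and Srebf1 overlaps Rai1. On the same strand, Fdps overlaps Gm43738, Tm7sf2 overlaps Vps51, and Scd2 and Srebf1 overlap the microRNA genes Mir5114 and Mir6922. Antisense or unclassified transcripts lie opposite Acss2, Elovl6, Hmgcs1, Idi1, Lss and Me1. Values of these genes are uncertain by the reads of their partners.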

How the data were processed

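Messenger RNA was sequenced with the TruSeq mRNA kit, per the labels' protocols, from tumor nodules and cell lines. Reads were aligned with STAR to mm10, per the submitters' processing notes; version, annotation, counting tool and strand setting are not given in the sources used here. The authors deposited whole-number gene counts for 12 tumors in a table named as corrected, with no statement of the correction, and raw counts for 3 SB1 samples in another. A further 3 value columns matched no sample and were not used, and the 3 SY1 samples were not analysed here. The headers name YAP-SY CCA tumor 8 and YAP-SY mixed tumor 3 with another prefix than the other YAP-SY tumors, and what it marks is not stated.

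All 12 tumors entered one edgeR 4.0.16 quasi-likelihood fit (R 4.3.3, TMM, filterByExpr by group), with p-values adjusted by Benjamini and Hochberg's method over 18318 genes and a threshold of 0.05, in 5 contrasts. The fit was tested on simulated data in which few genes differed, so this check does not cover the choice of scaling where many differ. Depth is 30656499 to 130035221 counts a tumor and 25341968 to 30541185 a SB1 sample, and the lowest count of a member in a tumor was 370 (Mvk). Alternatives used library size alone, DESeq2 size factors, upper quartiles, DESeq2 1.42.0, limma 3.58.1 voom with sample quality weights or a block, no filter, only the groups compared, and each tumor left out. Voom with neither weights nor block was added after the data were seen.

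Full statistics are given for up to 6 sterol and 6 fatty acid genes with the smallest p past the threshold in each contrast, for Srebf1, Srebf2, Insig1, Sqle, Fasn, Scd1, Scd2, Acaca and Acacb in CCA tumors, and for up to 4 genes a direction of the other pathway lists. The members and lists were chosen with earlier results of these data known. Adgre1 was matched by an older symbol. Promoters came from RefSeq on GRCm38.p6, and gene positions from GENCODE M21, on the same build as mm10.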

Additional observations from a re-analysis of the deposited data

Results flagged for a closer look

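For 4 genes, the difference between YAP-SY and YAP-S tumors was itself different in CCA and in mixed tumors, by the interaction test in edgeR with adjustment over all genes. Ebp differed by 0.76 on the log2 scale (adjusted p = 0.0233), being 0.77 in CCA and 0.0037 in mixed tumors. Acaca differed by 1.04 (adjusted p = 0.0184), from 1.01 in CCA and -0.03 in mixed tumors. Elovl6 differed by 0.98 (adjusted p = 0.0118), from 0.96 and -0.01. Scd2 differed by -1.68 (adjusted p = 0.0189), from -1.63 and 0.06. In the same test 4 of 8 hepatocyte markers were higher and 5 of 6 fibroblast markers lower, and their part in the result was not tested. Of all genes, 5.02% were higher and 10.2% lower in that test. With library size alone, of these 4 genes Scd2 kept its call.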

How the results depend on the processing

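With library size alone, 4 sterol and 2 fatty acid genes were called between the models in CCA tumors, against 11 and 7, and over all genes 760 were higher and 8064 lower, against 3358 and 3813. Of the named genes called in that contrast under TMM or under library size, 26 kept their direction and lost the call, 5 gained one and 6 turned: Pmvk to -0.45, Fads1 to -0.0015, Ggps1 to -0.35, Mlx to -0.11, Elovl1 to -0.42 and Dgat1 to -0.087. Members called under neither also changed sign, so that in all the members above 0 went from 16 to 11 of 19 sterol and from 14 to 6 of 16 fatty acid genes. This scaling lowers log2 fold changes by about the shift of the median gene, -0.56. With DESeq2 size factors or upper quartiles no called gene of these turned or lost its call in that contrast. Leaving out 1 tumor at a time gave 6 to 13 sterol and 4 to 8 fatty acid calls in CCA tumors. The lowest numbers came from leaving out tumor 5 of YAP-S CCA or tumor 6 of YAP-SY CCA. Over all genes the leave-outs gave 2090 to 3545 higher and 3031 to 4075 lower. Where a left-out tumor leaves 2 in a group, the spread of all groups is still pooled.

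Between CCA and mixed tumors of YAP-S, where edgeR called none, the sterol calls were 1 with DESeq2, 6 with voom and sample quality weights and 3 with only the groups compared. The fatty acid calls there were 2 with DESeq2, 3 with voom and weights, and 2 each with no filter (27708 genes tested), only the groups compared, the replicate block and plain voom. Over all genes, DESeq2 called 1037 as higher and 476 as lower, voom with weights 1987 and 1622, only the groups compared 1602 and 791, the replicate block 767 and 224, plain voom 618 and 140, and no filter 448 and 122. The fatty acid calls were 0 to 1 over the leave-outs, the 1 being without YAP-SY CCA tumor 6, where 486 of all genes were higher and 184 lower. Within YAP-SY, the 1 fatty acid call was 0 with voom and weights, only the groups compared, the replicate block and plain voom, and 0 to 1 over the leave-outs. In the interaction, the 1 sterol call became 2 with voom and weights and ran from 0 to 5 over the leave-outs. The 3 fatty acid calls ran from 1 to 3. Voom and weights called 1366 of all genes as higher and 1644 as lower there. The leave-outs gave 201 to 1046 higher and 856 to 2031 lower. The cause was not tested.

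Tumor numbers 3, 5 and 9 occur in both models, and the labels do not say that a number marks a shared animal or batch. Deviations from the group means correlated at 0.179, 0.349 and 0.09 for these pairs. Over 33 pairs of different numbers the correlations were -0.313 to 0.29, with a median of -0.033. Of the 6 tumors with such a partner, 3 correlated best with their own number. The numbers were not taken as pairs because the labels state no link, and 3 pairs are too few to decide whether one exists. With the replicate block (correlation 0.22), 11 sterol and 7 fatty acid genes were called in CCA tumors, and 1 and 3 in the interaction. Of all 18318 genes, the block called 3303 as higher and 3823 as lower in CCA tumors. In the interaction it called 1031 and 1955. Depth limits few members, since the lowest tumor count was 370.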
